A study of Homo sapiens with 12 samples.

Results

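The genes described here are the aryl hydrocarbon receptor AHR, its partner ARNT, its repressor AHRR and 4 genes known to respond to it, CYP1A1, CYP1B1, TIPARP and NQO1. They are 7 of the 60675 genes in the count files and were picked by symbol, with 1 file entry for each. CYP1A1 was put on the list because it had been seen to rise with namoline in C4-2 cells. Its values in that comparison, and those of the other 6 genes, are therefore given as a description with no test.

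RNA of 12 libraries in 6 groups of 2 was sequenced from human prostate cancer cells labelled as a pair of lines. These are LNCaP, which depends on androgen, and LNCaP:C4-2 (C4-2 below), a castration-resistant line derived from it. All 12 libraries came from cells given 1 nM of the synthetic androgen R1881 for 72 h, so no group lacked androgen. The C4-2 groups had R1881 alone, R1881 with 50 µM namoline, which blocks the lysine demethylase KDM1A, R1881 with TCE-5002, which blocks KDM7A, a demethylase of the Jumonji family, or R1881 with both, called the combination. The LNCaP groups had R1881 alone or the combination. For TCE-5002 the series text gives 100 µM and the methods of the study a lower concentration, and the dose is therefore uncertain. Per the study, TCE-5002 also targets KDM7B (PHF8) and KDM2A below 50 µM, so its changes cannot be credited to KDM7A alone. The comparisons ask how either inhibitor, or both, changes transcripts while androgen is present. The study calls its replicates biological.

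AHR is a transcription factor of the basic helix-loop-helix PAS family that waits in the cytosol with the chaperone HSP90 until a ligand, such as a dioxin, a polycyclic hydrocarbon or a tryptophan derivative, binds it. It then enters the nucleus, pairs with ARNT and binds DNA at the xenobiotic response element, whose core letters are GCGTG. CYP1A1 and CYP1B1 are cytochrome P450 enzymes induced this way that oxidise hydrocarbons and oestrogens. AHRR and TIPARP are induced too and dampen the receptor in return, while NQO1, a quinone reductase, answers both to AHR and to the oxidative stress factor NRF2.

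The promoters of CYP1A1 and NQO1 are shown because their transcripts followed the most similar course in C4-2 cells, and that of AHRR because its level with R1881 alone differed most between the lines. Each sequence holds the 250 bases before a RefSeq transcription start and the first 30 transcribed bases, 5′ to 3′ on the gene strand, in build GRCh38.p14. Capitals mark GCGTG or, for a match on the opposite strand, CACGC. The windows are chr15:74725499-74725778 (minus strand) for CYP1A1, chr16:69726531-69726810 (minus strand) for NQO1 and chr5:321464-321743 (plus strand) for AHRR, the last being 1 of its promoter entries.
CYP1A1: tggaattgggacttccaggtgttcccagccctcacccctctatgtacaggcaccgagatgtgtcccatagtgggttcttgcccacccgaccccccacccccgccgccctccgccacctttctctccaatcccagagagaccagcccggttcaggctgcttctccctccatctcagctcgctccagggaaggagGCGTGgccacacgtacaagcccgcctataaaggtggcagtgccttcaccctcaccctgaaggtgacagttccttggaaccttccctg
NQO1: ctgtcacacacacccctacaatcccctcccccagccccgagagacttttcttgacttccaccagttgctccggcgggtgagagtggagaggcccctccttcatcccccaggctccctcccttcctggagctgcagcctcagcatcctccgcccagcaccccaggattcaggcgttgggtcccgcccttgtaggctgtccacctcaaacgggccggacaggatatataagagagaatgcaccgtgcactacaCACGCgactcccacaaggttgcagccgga
AHRR: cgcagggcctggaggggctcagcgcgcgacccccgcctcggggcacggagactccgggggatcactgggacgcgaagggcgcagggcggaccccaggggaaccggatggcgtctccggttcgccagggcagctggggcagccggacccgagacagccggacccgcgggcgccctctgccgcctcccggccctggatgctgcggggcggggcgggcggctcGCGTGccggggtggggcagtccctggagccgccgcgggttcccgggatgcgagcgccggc
In CYP1A1 the match began 57 bases before the start, and in AHRR 30 bases before it, where it lay in the longer form TNGCGTG. In NQO1 the opposite strand held the longer form just after the start. The set of RefSeq promoters used here held 9 entries for 6 of the 7 genes, all but CYP1B1. GCGTG was present in at least 1 entry of 5 genes (AHR, AHRR, CYP1A1, TIPARP and NQO1) and not found in the window of ARNT, searched on both strands in 300 bases. Of 35114 RefSeq promoters of that length, 36.5% held GCGTG and 5.51% held TNGCGTG, so a match is common and describes the letters alone.

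Gene totals ran from 14791602 to 20690819 counts per library. Levels are given as CPM, gene counts brought to a common library size with TMM factors over the 12 libraries, and a change is called where the adjusted p-value of edgeR's quasi-likelihood test, over all genes tested, is under 0.05. The 4 libraries labelled LNCaP stood apart from C4-2 in the markers of the labelled tissue. The summed level of 14 luminal prostate markers was 1109 to 1192 CPM in the libraries labelled LNCaP with R1881 and 5753 to 5896 CPM in C4-2 with R1881, and that of 7 mesenchymal markers was 837 to 937 CPM against 30.6 CPM. In C4-2 with R1881, 3 of these 7 (ZEB2, CDH2 and SPARC) had 0 counts. Within C4-2 the luminal sum was 8442 to 8747 CPM with TCE-5002, 6514 to 6801 CPM with namoline and 3034 to 3177 CPM with the combination. The part of these markers in the results below was not tested, and neither was the identity of the cells labelled LNCaP. The 4 basal markers summed to less than 1 CPM in each group. Replicates of TCE-5002 stood farthest apart, with a chi-square per gene of 24.8, where counting noise alone gives about 1. In one library labelled LNCaP combination, replicate 1, the name kept in the count file gives namoline and no TCE-5002, against its label. Values without that library are given beside the LNCaP results, and those of the lists were computed after the data were seen.

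**Figure D1:**
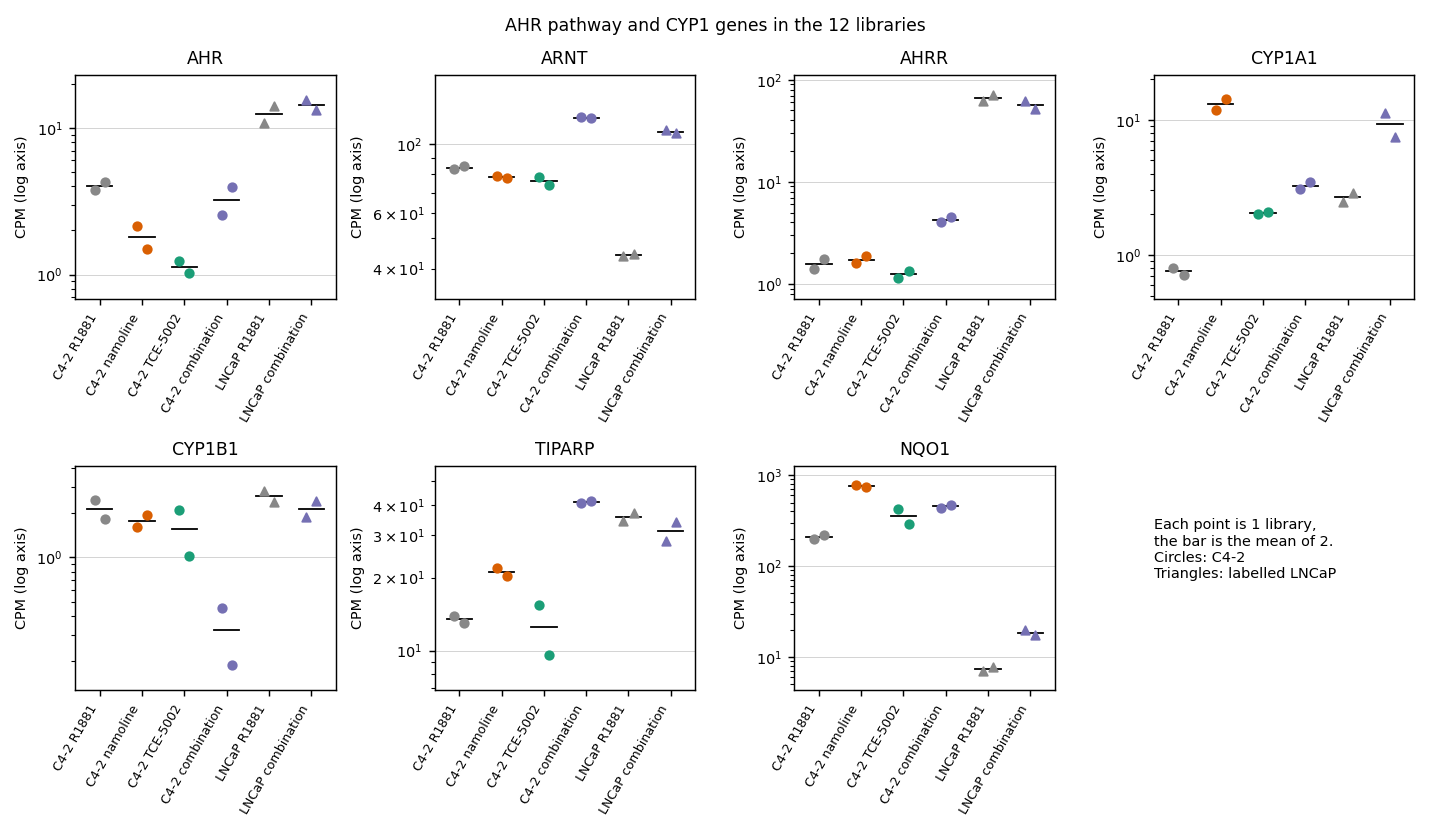
Level of each gene in CPM (log axis) in the 12 libraries by group, where points are libraries and bars the means of 2. CYP1A1 was highest in C4-2 with namoline (11.8 and 14.3 CPM), NQO1 was at least 197.9 CPM in every C4-2 library and at most 19.6 CPM in every library labelled LNCaP, and AHRR was at most 4.50 CPM in C4-2 and at least 51.8 CPM in LNCaP.

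Beginning with the enzymes, CYP1A1 (ENSG00000140465, chr15:74719542-74725610, minus strand) was a low transcript in C4-2 with R1881 alone, at 0.796 and 0.714 CPM, which came from 17 and 11 counts. It stood at 11.8 and 14.3 CPM with namoline, at 2.02 and 2.09 CPM with TCE-5002 and at 3.06 and 3.44 CPM with the combination. The LNCaP-labelled libraries held it at 2.47 and 2.87 CPM with R1881 and at 11.3 and 7.51 CPM with the combination. All 5 pairs of neighbouring groups in the order of its levels were separated, library by library. How many of all genes separate in this way was not counted, and the order includes the groups that chose CYP1A1. The order ran from C4-2 namoline, through LNCaP combination, C4-2 combination, LNCaP R1881 and C4-2 TCE-5002, down to C4-2 R1881. Namoline alone thus came with a 16.9-fold higher level than R1881 (log2 4.08, SE 0.25), and the combination with a level 4.05-fold below that of namoline (log2 -2.02, SE 0.21), both given as descriptions. In RNA pooled from many cells, fewer cells expressing a gene and less of its RNA per cell cannot be told apart, here or for the other genes.

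Tests of CYP1A1 used the remaining comparisons. It rose with TCE-5002 (log2 1.42, SE 0.30, adjusted p = 0.00211) and with the combination (log2 2.06, SE 0.29, adjusted p = 4.35e-05), but both share the C4-2 R1881 libraries with the comparison that chose it. The combination against TCE-5002 asks what namoline adds when TCE-5002 is already present, in 4 libraries the choice did not use. There the combination was above TCE-5002 by 0.63 on the log2 scale (SE 0.24, adjusted p = 0.0376). The call was lost on leaving out each of these 4 libraries in turn (log2 0.56 to 0.71) and with DESeq2 (adjusted p = 0.0797, from 0.0108 to 0.161 over all alternatives). The libraries labelled LNCaP were not used for the choice either, and there CYP1A1 rose with the combination by 1.86 (SE 0.24, adjusted p = 5.64e-08), and by 1.55 (SE 0.27) without replicate 1 of the combination. The log2 change with the combination differed between the lines by 0.14 (SE 0.42, adjusted p = 0.815), and the sign of that difference turned without LNCaP combination replicate 2 (log2 -0.13). With R1881 alone CYP1A1 was lower in C4-2 than in the LNCaP-labelled pair (log2 -1.77, SE 0.34, adjusted p = 5.56e-05), again with the libraries that chose it.

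CYP1B1 (ENSG00000138061, chr2:38066973-38109902, minus strand) had another order of levels. It was 2.43 and 1.82 CPM in C4-2 with R1881, 1.60 and 1.92 CPM with namoline and 2.07 and 1.02 CPM with TCE-5002. With the combination it was down to 0.454 and 0.188 CPM, which came from 8 and 3 counts. The libraries labelled LNCaP gave 2.79 and 2.37 CPM with R1881 and 1.88 and 2.38 CPM with the combination. The combination in C4-2 was the single group set apart from its neighbour in the order of levels, and the other 4 pairs of neighbours overlapped. CYP1B1 fell with the combination by 2.72 against R1881 (SE 0.50, adjusted p = 0.000461) and by 2.25 against TCE-5002 (SE 0.52, adjusted p = 0.00212). The LNCaP-labelled libraries gave a change of -0.21 (SE 0.32, adjusted p = 0.599), or -0.058 (SE 0.37) without combination replicate 1, and the difference between the lines was -2.57 (SE 0.57, adjusted p = 0.000664). With R1881 alone the lines were 0.23 apart (log2 C4-2 minus LNCaP -0.23, SE 0.31, adjusted p = 0.512). Of its exon bases 13.0% are shared with other genes, most of them with the antisense gene CYP1B1-AS1, and the counting did not use strand.

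CYP1A2, the third enzyme of the CYP1 family, and ALDH3A1, an aldehyde dehydrogenase of the same battery, were singled out after their values were seen. CYP1A2 had 0 and 3 counts in C4-2 with R1881, 22 and 17 with namoline, 5 and 5 with TCE-5002 and 5 and 6 with the combination. ALDH3A1 had 4 and 1 counts with R1881, 22 and 21 with namoline, 0 and 0 with TCE-5002 and 21 and 2 with the combination. Both had their highest mean level among the C4-2 groups with namoline. Over the 11 tested genes of that battery, the median log2 change with namoline against R1881 was 0.72, described only. Over the 6 tested of the other genes known to be induced through AHR it was -0.007, beside -0.004 for all genes. Among the LNCaP-labelled libraries, CYP1A2 had 1 to 3 counts and ALDH3A1 fell from 2.93 and 4.28 CPM with R1881 to 0.484 and 0.457 CPM with the combination (log2 -2.87, SE 0.41).

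NQO1 (ENSG00000181019, chr16:69706996-69726951, minus strand) was the most abundant of the 7 genes in C4-2 per length, at 63.9 CPM per kb of exon with R1881 against 0.220 for CYP1A1. Its levels were 197.9 and 218 CPM with R1881, 772 and 749 CPM with namoline, 423 and 288 CPM with TCE-5002 and 437 and 471 CPM with the combination. The 4 libraries labelled LNCaP were far lower, at 7.07 and 7.73 CPM with R1881 and 19.6 and 17.2 CPM with the combination. No neighbouring groups overlapped in the order of its levels, again without a count over all genes. Against R1881 the level was 3.62-fold higher with namoline (log2 1.86, SE 0.15, described only).

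NQO1 rose with TCE-5002 by 0.77 (SE 0.15, adjusted p = 0.00104), and it was 0.46 without TCE-5002 replicate 1 and 1.04 without TCE-5002 replicate 2. It rose with the combination by 1.10 (SE 0.15, adjusted p = 3.25e-05). Between combination and TCE-5002 the difference of 0.33 (SE 0.15) was not past the threshold (adjusted p = 0.0712), it was 0.067 without TCE-5002 replicate 2, and past the threshold at 0.64 without TCE-5002 replicate 1. The combination raised it by 1.37 in the libraries labelled LNCaP (SE 0.16, adjusted p = 1.57e-08), and by 1.27 without replicate 1 of the combination. With R1881 alone, NQO1 was 28.6-fold higher in C4-2 than in the libraries labelled LNCaP (log2 4.84, SE 0.11, adjusted p = 5.58e-21). It shares 575 exon bases with an antisense gene that had 0 counts in the 12 libraries. Counting did not use strand, so that 0 does not show that antisense RNA was absent.

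The receptor itself was lower with each single treatment than with R1881. AHR (ENSG00000106546, chr7:17298622-17346152, plus strand) was 3.79 and 4.29 CPM in C4-2 with R1881, 2.13 and 1.5 CPM with namoline and 1.24 and 1.02 CPM with TCE-5002. With the combination it was 2.55 and 3.94 CPM, which overlapped R1881, and in the libraries labelled LNCaP it was 10.7 and 14.1 CPM with R1881 and 15.5 and 13.3 CPM with the combination. Both single treatments lay below R1881 in each library, and the LNCaP-labelled libraries above all C4-2 libraries. AHR fell with TCE-5002 by 1.82 (SE 0.31, adjusted p = 0.000477), was lower with namoline as a description (log2 -1.16, SE 0.30), and was higher with the combination than with TCE-5002 (log2 1.48, SE 0.32, adjusted p = 0.00131). Against R1881 the combination gave -0.34 (SE 0.28, adjusted p = 0.322), and in LNCaP-labelled cells 0.27 (SE 0.16, adjusted p = 0.169), or 0.15 (SE 0.18) without replicate 1. With R1881 alone AHR was 3.03-fold lower in C4-2 (log2 -1.60, SE 0.20, adjusted p = 1.07e-07). Of its exon bases 270 are shared with an antisense gene that had 20 counts over the 12 libraries, also counted without strand.

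ARNT (ENSG00000143437, chr1:150809705-150876768, minus strand), the partner of AHR and of the hypoxia factors, was highest with the combination in both lines. It was 83 and 85 CPM in C4-2 with R1881, 79.2 and 77.9 CPM with namoline, 78.2 and 74.1 CPM with TCE-5002 and 122 and 121 CPM with the combination. Under the LNCaP label it was 43.8 and 44.7 CPM with R1881 and 111 and 109 CPM with the combination. The change with TCE-5002 alone was -0.14 (SE 0.10, adjusted p = 0.316). ARNT rose with the combination in both lines, by 0.51 in C4-2 (SE 0.10, adjusted p = 0.00101) and by 1.37 in LNCaP-labelled cells (SE 0.11, adjusted p = 1.99e-12), or 1.35 without replicate 1. The change was 0.91 smaller in C4-2 on the log2 scale (difference -0.91, SE 0.12, adjusted p = 8.22e-07). With R1881 alone ARNT was higher in C4-2 by 0.95 (SE 0.09, adjusted p = 4.08e-10). Against TCE-5002 the combination gave 0.65 (SE 0.10, adjusted p = 0.000106).

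Of the 2 genes that feed back on the receptor, AHRR (ENSG00000063438, chr5:304176-438291, plus strand) differed most between the lines with R1881 alone. It was 1.40 and 1.75 CPM in C4-2 with R1881, 1.60 and 1.86 CPM with namoline, 1.14 and 1.34 CPM with TCE-5002 and 4.03 and 4.50 CPM with the combination. The libraries labelled LNCaP held 61.4 and 70.4 CPM with R1881 and 61.7 and 51.8 CPM with the combination. With R1881 it was 41.4-fold higher in the libraries labelled LNCaP (log2 C4-2 minus LNCaP -5.37, SE 0.17, adjusted p = 1.23e-18). With the combination its mean level was 13.3-fold higher in the libraries labelled LNCaP, while that of NQO1 was 24.6-fold higher in C4-2. In C4-2 it rose with the combination by 1.42 against R1881 (SE 0.28, adjusted p = 0.000689) and by 1.75 against TCE-5002 (SE 0.28, adjusted p = 0.000112). Its change in LNCaP-labelled cells was -0.16 (SE 0.11, adjusted p = 0.243), past the threshold at -0.29 without combination replicate 1 and 0.066 with a correction for GC content. With TCE-5002 alone it was -0.33 in C4-2 (SE 0.32, adjusted p = 0.438). AHRR shares 244 exon bases with PDCD6 on the same strand.

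TIPARP (ENSG00000163659, chr3:156673235-156706770, plus strand), a mono-ADP-ribosyltransferase that promotes loss of AHR, was 13.9 and 13.0 CPM in C4-2 with R1881, 21.9 and 20.4 CPM with namoline and 15.5 and 9.59 CPM with TCE-5002. With the combination it reached 40.8 and 41.5 CPM, above the libraries labelled LNCaP, which gave 34.3 and 37.1 CPM with R1881 and 28.4 and 33.9 CPM with the combination. TIPARP rose in C4-2 with the combination, by 1.58 against R1881 (SE 0.18, adjusted p = 7.37e-06) and by 1.69 against TCE-5002 (SE 0.18, adjusted p = 2.59e-06). With TCE-5002 alone its change was -0.10 (SE 0.19, adjusted p = 0.698), and it ran from -0.50, past the threshold, without TCE-5002 replicate 1 to 0.21 without replicate 2. For LNCaP-labelled cells the combination gave -0.13 (SE 0.13, adjusted p = 0.376), past the threshold at -0.33 with the GC correction and -0.017 (SE 0.13) without combination replicate 1. The difference between the lines was 1.66 (SE 0.17, adjusted p = 1.68e-08), and with R1881 alone TIPARP was 2.59-fold lower in C4-2 (log2 -1.37, SE 0.12, adjusted p = 3.1e-10).

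**Figure D2:**
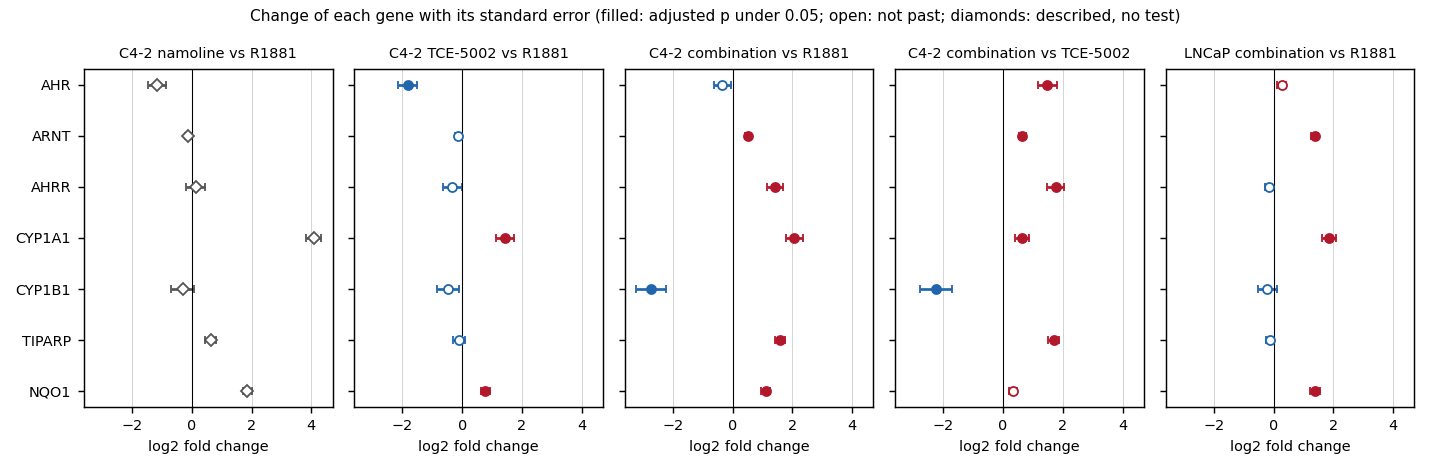
Log2 fold change of each gene with its standard error in 5 comparisons, filled where the adjusted p is under 0.05, open where it is not, and grey diamonds where no test applies. In C4-2 the combination moved 5 genes up and CYP1B1 down against R1881, while in the libraries labelled LNCaP it moved ARNT, CYP1A1 and NQO1.

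Counted over the 7 genes, all of which passed the filter on low counts in each comparison, 3 passed the threshold with TCE-5002 against R1881 (2 higher, 1 lower), where 36.5% of all genes tested did. The combination against R1881 changed 6 (5 higher, 1 lower, 50.3% of all genes), and against TCE-5002 also 6 (5 higher, 1 lower, 55.1% of all genes). The LNCaP-labelled libraries showed 3 higher and 0 lower with the combination (56.2% of all genes). With R1881 alone, 6 differed between the lines (76.8% of all genes), and the response to the combination differed for 4 (47.6% of all genes). The medians of the log2 changes were -0.14 for TCE-5002, 1.10 for the combination against R1881, 0.65 for the combination against TCE-5002 and 0.27 for the libraries labelled LNCaP, beside medians of all genes no further from 0 than -0.04. For namoline against R1881, described only, the log2 changes besides CYP1A1, NQO1 and AHR were 0.63 for TIPARP (SE 0.18), 0.13 for AHRR (SE 0.31), -0.11 for ARNT (SE 0.10) and -0.31 for CYP1B1 (SE 0.38). For the combination against namoline they were 0.82 for AHR, 1.29 for AHRR, 0.62 for ARNT, 0.95 for TIPARP, -0.75 for NQO1 and -2.41 for CYP1B1. CYP1A1, NQO1 and CYP1B1 thus lay lower with both inhibitors than with namoline, and the other 4 genes higher. The comparisons against R1881 in C4-2 share their control libraries. CYP1A1 is among the genes called in both that were tested, and between the lines with R1881 alone, all with libraries that chose it. It is also among those called against TCE-5002, where its call was lost on leaving out each library compared in turn.

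The genes whose course was most like CYP1A1 over the 8 C4-2 libraries, by Pearson correlation of log2 CPM among 12127 protein-coding candidates, were CDC6 (0.988), TTF2 (0.987), MCM7 (0.986), ANAPC1 (0.984) and MASTL (0.983). CDC6 and MCM7 license DNA replication, ANAPC1 is a subunit of the anaphase-promoting complex and MASTL a mitotic kinase. CDC6 was 20.6 and 14.8 CPM with R1881, 79.4 and 105 CPM with namoline, 31.4 and 29.7 CPM with TCE-5002 and 41.1 and 37.3 CPM with the combination. MCM7 took the same ranks in the 8 libraries as CYP1A1 (Spearman 1). By Spearman correlation, only MCM7 of the 5 stayed among the top 5. With the libraries labelled LNCaP included, these 5 Pearson correlations were 0.65 to 0.82, with ranks from 48 (MCM7) to 306 (MASTL). Among the 7 genes NQO1 was nearest to CYP1A1 (0.97), then TIPARP (0.42), AHRR (0.18), ARNT (-0.03), CYP1B1 (-0.12) and AHR (-0.40). The points share libraries and group means and carry no p. They include the namoline and R1881 libraries that chose CYP1A1, so a shared rise with namoline follows from how the 5 genes were picked.

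**Figure D3:**
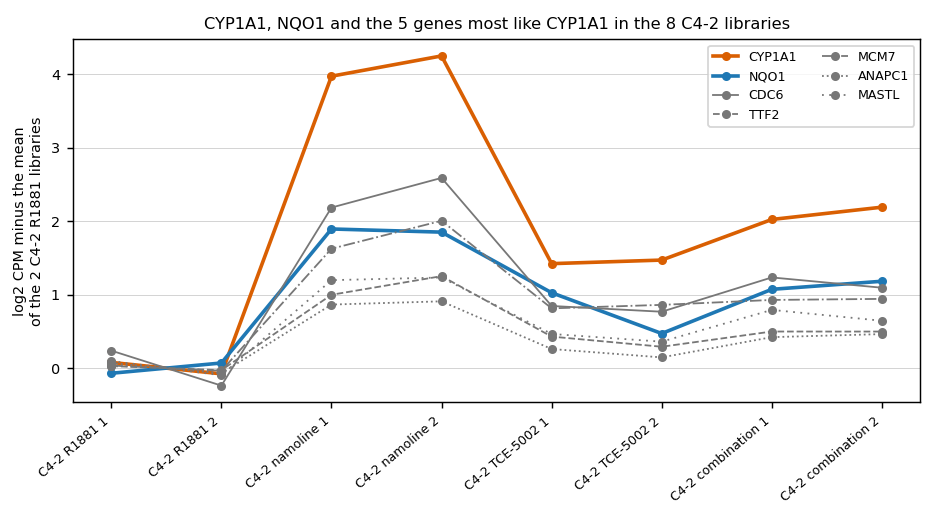
Log2 CPM of CYP1A1, NQO1 and the 5 most similar genes in the 8 C4-2 libraries, each set against its mean in the R1881 libraries. All 7 lines peak in the namoline libraries, with CYP1A1 the steepest, and all lie above R1881 with the combination. The 5 genes were picked for likeness to CYP1A1 in these same 8 libraries, so their shared peak follows from that choice.

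The wider pathway was followed in 7 gene lists. Of the 13 NRF2 targets, which share a regulator with NQO1, 13 rose with the combination against TCE-5002, with a median log2 change of 1.58 beside -0.04 for all genes. SRXN1, which restores peroxiredoxins, rose from 5.82 ± 2.30 to 39.2 ± 7.21 CPM (SD, n = 2), and OSGIN1, an oxidative stress-induced growth inhibitor, from 5.50 ± 0.02 to 36.1 ± 0.18 CPM. Against R1881, 12 rose and SLC7A11, the cystine transporter, fell (log2 -0.43, SE 0.14), with a list median of 1.86. TCE-5002 alone raised 3, FTH1 among them (log2 1.05, SE 0.16), and lowered SLC7A11 (log2 -1.60, SE 0.14), with a median of -0.07. With TCE-5002 alone, 36.5% of all genes passed the threshold. Of 11 tested in LNCaP-labelled cells with the combination against R1881, 5 rose, led by TXNRD1 (log2 1.11, SE 0.10) and GCLC, which makes glutathione (log2 1.10, SE 0.12), and 3 fell, SRXN1 (log2 -1.49, SE 0.29), FTH1 (log2 -0.60, SE 0.13) and SLC7A11 (log2 -0.54, SE 0.11). Their median was 0.31, and without combination replicate 1 it was 0.074, with 5 higher and 4 lower. The difference between the lines was past the threshold and higher in C4-2 for 9 of 13, SRXN1 among them (log2 4.23, SE 0.30). Of all genes, 47.6% passed the threshold in that difference, in either direction.

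Of the xenobiotic battery, 11 of 13 genes were tested in C4-2. With the combination against TCE-5002, where 55.1% of all genes passed the threshold, 6 fell and 1 rose (median -0.82). Against R1881, 4 fell, 1 rose and 6 were not past the threshold (median -0.31). CYB5A, an electron donor to P450 enzymes, fell from 278 ± 41.2 to 69.8 ± 0.61 CPM (SD, n = 2). The gene that rose against TCE-5002 was ALDH3A1, whose rise rests on the 21 counts of combination replicate 1 given above, and without that library it was not past the threshold (adjusted p = 0.116). With TCE-5002 alone 5 rose, CYB5A among them (log2 1.09, SE 0.12), and 0 fell (median 0.82), beside 36.5% of all genes past the threshold. Of 8 tested in LNCaP-labelled cells against R1881, 5 fell, including POR, the P450 reductase (log2 -0.82, SE 0.12), and CYB5A rose (log2 0.30, SE 0.13). Without combination replicate 1 the same comparison gave 5 lower and 0 higher, with CYB5A at 0.25 (SE 0.14).

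In the cytosolic complex that holds AHR, all 7 genes were tested. The combination against TCE-5002 raised XPO1, an export receptor (log2 0.35, SE 0.13), and lowered the ubiquitin ligase parts STUB1 (log2 -0.46, SE 0.15) and CUL4B (log2 -0.41, SE 0.13), with 4 not past the threshold. The calls of XPO1 and STUB1 were lost without either combination library, and that of CUL4B without replicate 2. Against R1881 the combination raised 4 and lowered 0 in C4-2 (median 0.42), the chaperones HSP90AA1 (log2 0.80, SE 0.14) and HSP90AB1 (log2 0.42, SE 0.12) and XPO1 (log2 0.42, SE 0.13) among them. In LNCaP-labelled cells the combination against R1881 raised 6 (median 0.69, the same counts without replicate 1), led by XPO1 (log2 1.10, SE 0.11) and HSP90AB1 (log2 1.02, SE 0.12), and lowered STUB1 (log2 -0.36, SE 0.12). Of the other genes induced through AHR, 6 of 13 were tested in C4-2, where with the combination 2 rose and 4 fell against TCE-5002 (median -0.72), and 1 rose and 4 fell against R1881 (median -1.27). Without combination replicate 1 the counts against TCE-5002 were 1 and 3. TNFAIP2 went from 16.0 ± 0.18 to 1.48 ± 0.32 CPM, SLC7A5, an amino acid transporter, from 236 ± 47.4 to 112 ± 11.8 CPM, and NFE2L2, which encodes NRF2, from 74.9 ± 13.7 to 126 ± 4.98 CPM (SD, n = 2). Among LNCaP-labelled libraries 4 of 7 fell and 0 rose against R1881, or 5 and 0 without combination replicate 1, and SLC7A5 fell by 1.37 on the log2 scale (SE 0.12).

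Of the PAS relatives of AHR and ARNT, 9 were tested in C4-2 and 3 rose and 0 fell with the combination against TCE-5002 (median 0.40), the clock factor BMAL1 (log2 1.24, SE 0.13), SIM2 (log2 0.74, SE 0.12), and the hypoxia factor HIF1A (log2 0.71, SE 0.13). Against R1881, 5 of the 9 rose and 2 fell (median 0.45). Of 10 tested in LNCaP-labelled cells against R1881, 5 rose, led by BMAL2 (log2 1.35, SE 0.11) and CLOCK (log2 0.64, SE 0.12), and 3 fell (4 without combination replicate 1), among them EPAS1, also a hypoxia factor (log2 -1.16, SE 0.26). Of the enzymes that make AHR ligands from tryptophan, 4 of 10 were tested in C4-2, while IDO1, IDO2 and TDO2 were below the filter. With the combination against TCE-5002, KYAT3 rose (log2 0.72, SE 0.13) and KYAT1 (log2 -1.22, SE 0.18) and AFMID (log2 -0.93, SE 0.13) fell. TCE-5002 alone raised all 3 against R1881, KYAT1 by 0.81 (SE 0.17), AFMID by 0.79 (SE 0.13) and KYAT3 by 0.49 (SE 0.13). The combination against R1881 raised KYAT3 (log2 1.21, SE 0.13) and lowered 0, with KYAT1 at -0.41 (SE 0.18) and AFMID at -0.14 (SE 0.13). Both KYAT genes rose with the combination against R1881 in LNCaP-labelled cells, with and without replicate 1, KYAT3 by 1.2 (SE 0.12) and KYAT1 by 0.63 (SE 0.17). Among the PARP relatives of TIPARP, 5 of 13 rose and 4 fell in C4-2 with the combination against TCE-5002 (median 0.23), with PARP14 at 1.26 (SE 0.12) and TNKS at 1.18 (SE 0.12) leading the rise. Against R1881, 5 rose and 3 fell (median -0.13). For LNCaP-labelled cells 7 of 14 rose and 4 fell against R1881, the same counts without combination replicate 1, and PARP3 fell by the most (log2 -1.56, SE 0.15). The counts of all lists stand beside the 55.1%, 50.3% and 56.2% of all genes given above, and beside 36.5% for TCE-5002 alone.

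**Figure D4:**
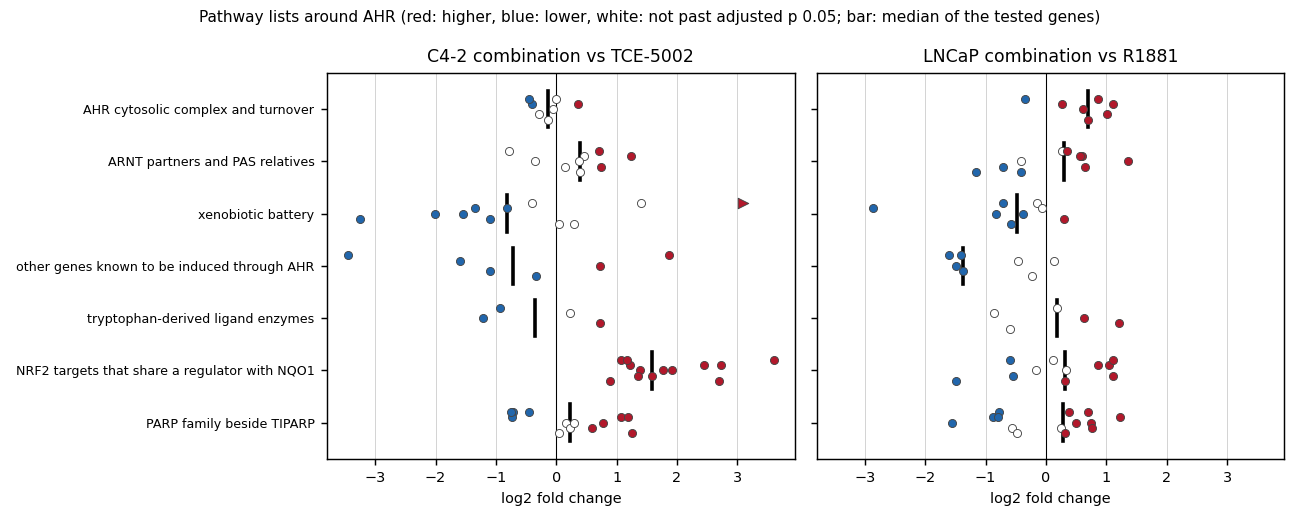
Log2 fold changes of the 7 lists in the combination against TCE-5002 in C4-2 (left) and against R1881 in the libraries labelled LNCaP (right), with points for genes (red higher, blue lower, white not past the threshold), bars for medians, and a triangle for ALDH3A1 at a lower bound set by 1 combination library. The 13 NRF2 targets all lie above 0 on the left, with a median of 1.58, and are spread around 0.31 on the right.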

How the data were processed

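Per the study's methods, poly(A) RNA was sequenced from both fragment ends, and the authors filtered the reads by quality, trimmed them with Trim Galore, aligned them to GRCh38 with STAR and counted fragments per gene with featureCounts and an Ensembl annotation. Per the file headers, these were featureCounts v1.5.0-p1 and release 83. The deposited values are raw counts for 60675 genes in each of 12 libraries. Counting ignored strand, so an antisense gene cannot be told from its partner where their exons overlap. Groups were taken from the library titles, since a treatment protocol in the labels describes siRNA work.

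From these counts, genes were kept with filterByExpr, scaled by TMM and tested with edgeR 4.0.16 (limma 3.58.1, R 4.3.3) by the quasi-likelihood F test, adjusted by Benjamini-Hochberg over all genes. The 8 C4-2 libraries shared one fit, the 4 libraries labelled LNCaP another, and the lines were compared in the 8 libraries with R1881 or the combination. CPM used TMM factors of all 12 libraries, and likeness used log2 CPM with a prior count of 0.5. The members and the lists were chosen with earlier results of these data known. Listed genes were named by size, the largest 2 in each direction past the threshold with at least 5 CPM, and other listed genes were named after their values were seen. Some listed genes are not reported here by name. Alternatives were DESeq2 1.42.0, the likelihood ratio test, RLE scaling, no filter, a GC correction, a replicate block, other sets of libraries in the fit and leaving out each library. The steps were tested on simulated counts. With 2 libraries per group, the spread rests on what genes share. The standard errors come from the F statistic of the test and include this estimated spread between replicates. The lower bound drawn for ALDH3A1 covers counting error only.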

Additional observations from a re-analysis of the deposited data

Results flagged for a closer look

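The response to the combination differed between C4-2 and the libraries labelled LNCaP for 4 genes, by the test of the difference itself in edgeR. That test called 47.6% of all genes. On the log2 scale the difference, C4-2 minus LNCaP, was 1.53 for AHRR (SE 0.26), -0.91 for ARNT (SE 0.12), -2.57 for CYP1B1 (SE 0.57) and 1.66 for TIPARP (SE 0.17). Without LNCaP combination replicate 1, whose name kept with the counts leaves out TCE-5002, these were 1.64, -0.92, -2.74 and 1.52. The lines also differ in the marker genes given above, and their part in these differences was not tested.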

How the results depend on the processing

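The counts of genes past the threshold stayed within 1.5 times in every alternative that was run, from 5 to 7 for the combination against TCE-5002 and from 4 to 6 for the difference between the lines. Signs turned for 4 values of the 7 genes, of which the 3 tested were not past the threshold as reported or after turning. The one described only was AHRR with namoline against R1881 (0.13), which ran from -0.025 (without R1881 replicate 1) to 0.28 (without R1881 replicate 2) in C4-2 and was -0.0018 with GC correction and replicate block. Leaving out 1 library at a time, TIPARP with TCE-5002 ran from -0.50 (without TCE-5002 replicate 1, past the threshold) to 0.21 (without TCE-5002 replicate 2), and CYP1A1 in the difference between the lines from -0.13 (without LNCaP combination replicate 2) to 0.44 (without LNCaP combination replicate 1). AHRR in the LNCaP-labelled libraries was 0.066 with a GC correction and 0.069 with GC correction and replicate block. The cause was not tested. AHR in the difference between the lines (-0.66) passed the threshold under the likelihood ratio test (-0.66), without C4-2 combination replicate 2 (-0.98) and without LNCaP combination replicate 2 (-0.77). NQO1 in that difference (-0.32) did so without LNCaP combination replicate 2 (-0.42).

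Replicate numbers are not said to mark a shared batch, and deviations of libraries with the same number correlated at -0.097 to 0.097 over 17413 genes, so the numbers were not taken to pair samples. With the replicate number as a block, NQO1 in the combination against TCE-5002 was 0.34 and past the threshold. Depth limits CYP1B1 with the combination (8 and 3 counts) and CYP1A1 with R1881 (17 and 11 counts) in C4-2. Low counts there were also those of AHR with TCE-5002 (24 and 19) and namoline (36 and 25). AHRR had 30 and 27 counts with R1881, 27 and 31 with namoline and 22 and 25 with TCE-5002.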
